A study of Mus musculus with 6 samples.

Results

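The Myc, Max and Mxd network was measured in hematopoietic stem and progenitor cells, on 3 arrays of wild-type mice and 3 arrays of mice lacking p65. It comprises 8 genes here: Myc, Mycn, Max, Mxd1, Mxd3, Mxd4, Mxi1 and Mnt. They were taken as the table rows whose platform annotation gives exactly 1 gene symbol and whose symbol is on this list. All 8 were found among the 19938 genes with such a row, each with 1 row, so no choice between rows was needed.

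Affymetrix arrays were hybridised with RNA of bone marrow cells that had been sorted as lacking lineage markers and Flk2 and carrying c-kit and Sca-1, which selects for stem cells and early progenitors. The 2 groups are labelled p65 wild-type and p65 knockout, where p65 is RelA, which is part of the NF-κB transcription factor, and the series title places the deletion in the hematopoietic compartment. The driver of the deletion and the strain, age and sex of the mice are not given in the sources used here. Each array title gives the genotype, mouse, the sorted cells and a number (n = 3 arrays per group). It does not say whether an array holds cells of 1 mouse or of several. The design asks which transcripts differ between the genotypes.

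Proteins of this network bind DNA as pairs through a basic helix-loop-helix leucine zipper. Max is the shared partner. Myc and N-Myc pair with Max to activate genes of growth, ribosome production and cell division, while the Mxd proteins, Mxi1 and Mnt pair with Max and recruit the Sin3 histone deacetylase complex to repress many of the same genes. Their common DNA site is the E-box CACGTG. In blood formation Myc and N-Myc are both active in stem cells, and members of the Mxd family are known for roles in cells that leave the cycle to differentiate.

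Promoters of the network's own genes were read to see which of them carry this site, and which carry a site for the missing subunit's family. The windows are RefSeq promoters of the GRCm38.p6 build, from 250 bases before to 50 after a transcript start, and 9 of them belong to 7 of the 8 genes (Myc was not matched). The E-box CACGTG, whose 2 strands read alike, occurred in the windows of Max, Mxd4 and Mnt, and the kappa-B consensus, searched on both strands, occurred in that of Mycn. Over all 32851 windows the shares were 7.15% for the E-box and 8.46% for the kappa-B consensus. The 4 matches are shown 5′ to 3′ on the strand of the gene, with the matched letters in capitals. Those letters are a description of sequence and do not show a bound site.
Max (chr12:76962234-76962263, minus strand, E-box): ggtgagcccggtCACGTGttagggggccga
Mxd4 (chr5:34187912-34187941, minus strand, E-box): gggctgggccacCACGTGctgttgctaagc
Mnt (chr11:74830789-74830818, plus strand, E-box): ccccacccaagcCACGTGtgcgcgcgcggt
Mycn (chr12:12941787-12941816, minus strand, kappa-B consensus): acgcgctgggtggatgcGGGGGGCTCCtgg
The E-box begins 3 bases before the transcript start in Max, 219 bases before it in Mxd4 and 123 bases before it in Mnt. These distances count from the start used for the window, which for Max and Mnt lies inside the annotated gene. The kappa-B match of Mycn begins at base 38 after the start.

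Several facts of the arrays bear on every value below. Wild-type replicate 1 stood apart: over these genes its correlation with each other array was 0.951 to 0.963, where the remaining pairs gave 0.982 to 0.994. Its bright genes read low, with a median of -0.48 (log2) relative to the mean of the other wild-type arrays in the brightest of 3 equal groups of genes by mean signal. The median log2 fold change of knockout over wild-type was -0.04 over all genes but 0.30 in that brightest group, which holds every member except Mxd3. Of the deleted gene itself, Rela, the 3 knockout values (7.33, 7.48 and 7.35) lay below the 3 wild-type values (7.52, 7.89 and 7.92). Among all genes 15.4% had this pattern, and in the brightest group, to which Rela belongs, 2.14% did. The log2 fold change of Rela, -0.39 (SE 0.16), did not pass the threshold (limma adjusted p = 0.209) but did without wild-type replicate 1 (-0.51, limma adjusted p = 0.04). Genes of the sorted cells were present, as Kit read 10.02 to 10.63 and Cd34 10.68 to 11.02 on the log2 scale. Flt3, the Flk2 gene, read 7.31 to 8.08. The gate acts on surface protein and the array reads RNA, so this value does not test the gate. Of the 5 measured genes of the sort and of stem cells 0 passed, and 2 were positive. Log2 fold changes were 0.06 for Flt3, 0.04 for Cd34, -0.09 for Slamf1, -0.30 for Kit and -0.69 for Procr, a stem cell surface gene. Every knockout value of Procr lay below the wild-type values, where 15.4% of all genes had this pattern. In the middle of the 3 groups, to which Procr belongs, 21.2% did. Kit (-0.48, limma adjusted p = 0.04999) and Procr (-0.86, limma adjusted p = 0.0402) fell without wild-type replicate 1. Their part in the network values was not tested. Sca-1 (Ly6a) was not analysed here.

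None of the 8 network genes passed the test of knockout against wild-type (0 of 8 at a limma adjusted p under 0.05), where 0.818% of all genes did. Without wild-type replicate 1, and with the replicate number as a block, the counts were again 0 of 8, where 4.66% and 1.87% of all genes passed. At an unadjusted limma p under 0.05 there was 1 of 8, Mycn, against a background of 21.6% of all genes. The median log2 fold change of the 8 genes was 0.06, and 5 were positive, where 45.9% of all genes were. Without wild-type replicate 1 the median was -0.06 and 2 were positive, where 45.3% of all genes were. With quantile and cyclic loess normalization the median was -0.14 and -0.15, with 2 and 1 positive, where 49.4% and 48.7% of all genes were. In both, 3 of 8 (Mycn, Mxd1 and Mnt) were lower at an unadjusted limma p under 0.05. The share of all genes at that level was not taken in those settings, so this count has no background. Mycn differed most in size, with a signal in knockout cells about 0.689 times that in wild-type, and the Myc signal stood at 1.17 times.

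**Figure D1:**
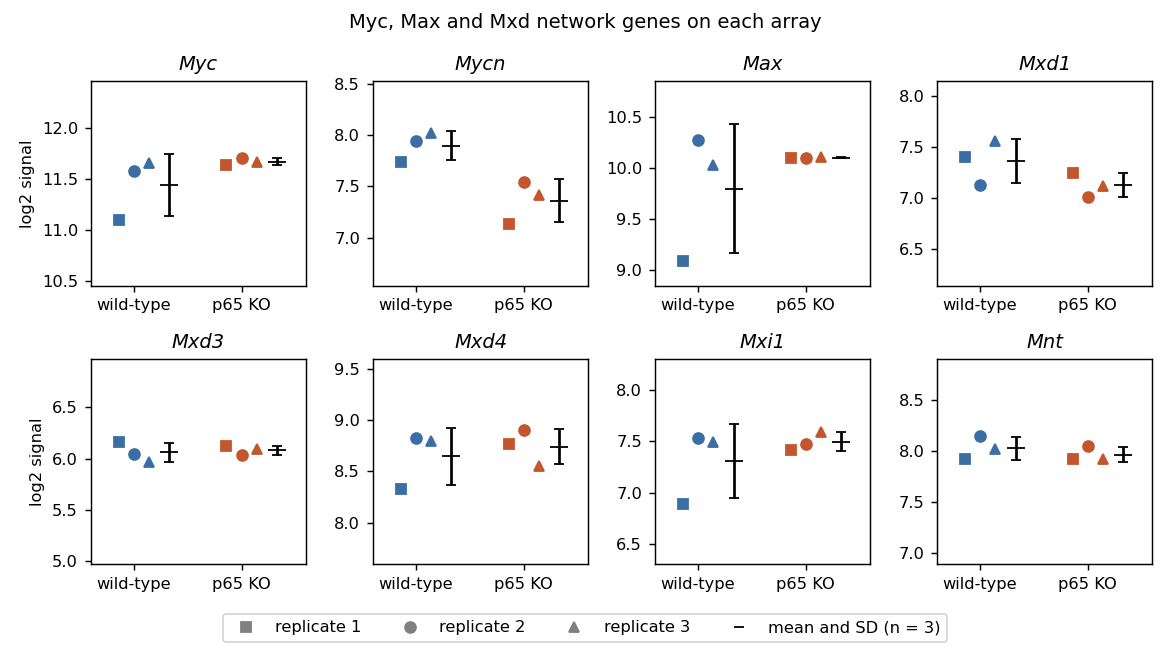
Log2 signal of each of the 8 network genes on each array, wild-type in blue and p65 knockout in orange, with the shape of a point giving the replicate number and the black bar the mean and SD (n = 3); every panel spans the same number of log2 units. The 3 knockout values of Mycn lie below its 3 wild-type values, and wild-type replicate 1 (blue square) is the lowest value of Myc, Max, Mxd4 and Mxi1.

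Of the activating members, Myc had a strong signal on every array. Its log2 values were 11.10, 11.58 and 11.66 on the wild-type arrays and 11.64, 11.71 and 11.67 on the knockout arrays. The knockout arrays lay within 0.07 of each other and inside or just above the range of wild-type replicates 2 and 3, while wild-type replicate 1 was lower. The log2 fold change of 0.23 (SE 0.17, 95% interval -0.17 to 0.63) did not pass (limma adjusted p = 0.424), and its two-sided exact permutation p was 0.2, where 3 against 3 arrays cannot go below 0.1. On the linear scale the interval runs from 0.888 to 1.54 times wild-type. Leaving out wild-type replicate 1 brought Myc to 0.05 (SE 0.10), and with cyclic loess normalization it was -0.06, so the data give it no settled direction.

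Mycn, the gene of N-Myc, read 7.74, 7.94 and 8.02 on the wild-type arrays and 7.13, 7.54 and 7.41 on the knockout arrays. The groups did not overlap, with the highest knockout value under the lowest wild-type value. Among all genes 15.4% had every knockout value below every wild-type value, and in the brightest of the 3 groups, to which Mycn belongs, 2.14% did. The means were 7.90 ± 0.14 and 7.36 ± 0.21 (SD, n = 3 each), a log2 fold change of -0.54 (SE 0.16, 95% interval -0.91 to -0.17). The unadjusted limma p of 0.00966 became an adjusted p of 0.135 over all genes, so Mycn did not pass, and its exact permutation p was 0.1. This log2 fold change lies at percentile 5.02 of those of all genes. Without wild-type replicate 1 Mycn stood at -0.62 (limma adjusted p = 0.0537). It passed with cyclic loess normalization (-0.80, limma adjusted p = 0.04) and with array weights (-0.59, limma adjusted p = 0.0345), and did not with quantile normalization (-0.79, limma adjusted p = 0.0635). Over the 15 alternatives its limma adjusted p ran from 0.0345 to 0.403. These are bulk samples, and fewer cells that express a gene cannot be told apart from less RNA per cell.

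Max, the shared partner, showed the widest spread of any member in wild-type and the narrowest in knockout. Its log2 values were 9.09, 10.28 and 10.03 on the wild-type arrays and 10.10, 10.09 and 10.11 on the knockout arrays. The 3 knockout arrays span 0.02 and lie between wild-type replicates 2 and 3. Wild-type replicate 1 read 1.07 below the mean of the other wild-type arrays, a gap that only 1.41% of all genes matched or exceeded in that direction. The log2 fold change of 0.30 (SE 0.28) did not pass (limma adjusted p = 0.501) and turned to -0.05 (SE 0.11, limma adjusted p = 0.799) without that array. It was also negative with quantile (-0.05) and cyclic loess normalization (-0.03).

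Of the antagonists, Mxd1 (Mad1) is the member best known for rising as myeloid cells mature. It read 7.40, 7.13 and 7.56 on the wild-type arrays and 7.25, 7.01 and 7.12 on the knockout arrays. The groups overlapped, with the lowest wild-type value under the highest knockout value. Its log2 fold change was -0.24 (SE 0.16, 95% interval -0.60 to 0.13, limma adjusted p = 0.372). The sign was negative under each of 15 alternatives, from -0.46 to -0.14, and the limma adjusted p ranged from 0.208 to 0.657, so none passed. This stood beside markers of granulocyte and monocyte precursors that rose: 5 of 5 (Elane, Mpo, Prtn3, Ctsg and Ms4a3) passed, and their mean log2 signal per array ran from 8.53 to 8.93 in wild-type and from 11.3 to 11.5 in knockout. Of 10 markers of mature granulocytes and macrophages 1 rose (Csf1r) and 9 did not pass, with means of 5.10 to 5.64 in wild-type and 5.33 to 5.46 in knockout. Of markers of other cells, 1 of 6 for lymphocytes rose (Nkg7), and 0 of 3 erythroid, 0 of 4 megakaryocyte and 0 of 5 stroma and endothelium genes passed. The megakaryocyte genes did not run one way, with log2 fold changes of -1.61 for the platelet gene Ppbp, -0.18 for Gp9, 0.03 for Itga2b and 0.37 for Pf4. Without wild-type replicate 1 only Ppbp passed (-2.57, limma adjusted p = 0.00236), with Gp9 at -0.35, Itga2b at -0.13 and Pf4 at 0.31. The endothelial gene Emcn (-1.48) fell with the replicate number as a block (limma adjusted p = 0.0283). The part of these cells in any network value was not tested.

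Mxi1 (Mad2) read 6.89, 7.53 and 7.50 on the wild-type arrays and 7.42, 7.48 and 7.60 on the knockout arrays. Apart from the low wild-type replicate 1, the values of both genotypes fell in the same narrow band. The log2 fold change was 0.19 (SE 0.19, limma adjusted p = 0.535), and -0.02 (SE 0.10) without that array.

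Mxd4 (Mad4) read 8.33, 8.83 and 8.79 on the wild-type arrays and 8.77, 8.90 and 8.56 on the knockout arrays, with overlap of the groups. Its log2 fold change of 0.09 (SE 0.18, limma adjusted p = 0.744) turned to -0.07 without wild-type replicate 1 and to -0.25 with cyclic loess normalization (limma adjusted p = 0.324). No direction can be given for Mxd4 or Mxi1.

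Mxd3 (Mad3), the Mxd member known for expression in cells in S phase, was the only one outside the brightest group of genes. It read 6.16, 6.05 and 5.97 on the wild-type arrays and 6.12, 6.03 and 6.10 on the knockout arrays, the knockout values all inside the wild-type range. Its log2 fold change was 0.02 (SE 0.13, 95% interval -0.28 to 0.32, limma adjusted p = 0.919), and -0.02 without wild-type replicate 3.

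Mnt, a broadly expressed repressor that counters Myc in cycling as well as resting cells, read 7.92, 8.14 and 8.02 on the wild-type arrays and 7.92, 8.05 and 7.92 on the knockout arrays. The groups overlapped almost fully. Its log2 fold change was -0.06 (SE 0.13, 95% interval -0.37 to 0.24, limma adjusted p = 0.762), and it turned to 0.01 with arrays centred on their medians. With quantile and cyclic loess normalization it stood at -0.37 and -0.36 (limma adjusted p = 0.233 and 0.2).

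**Figure D2:**
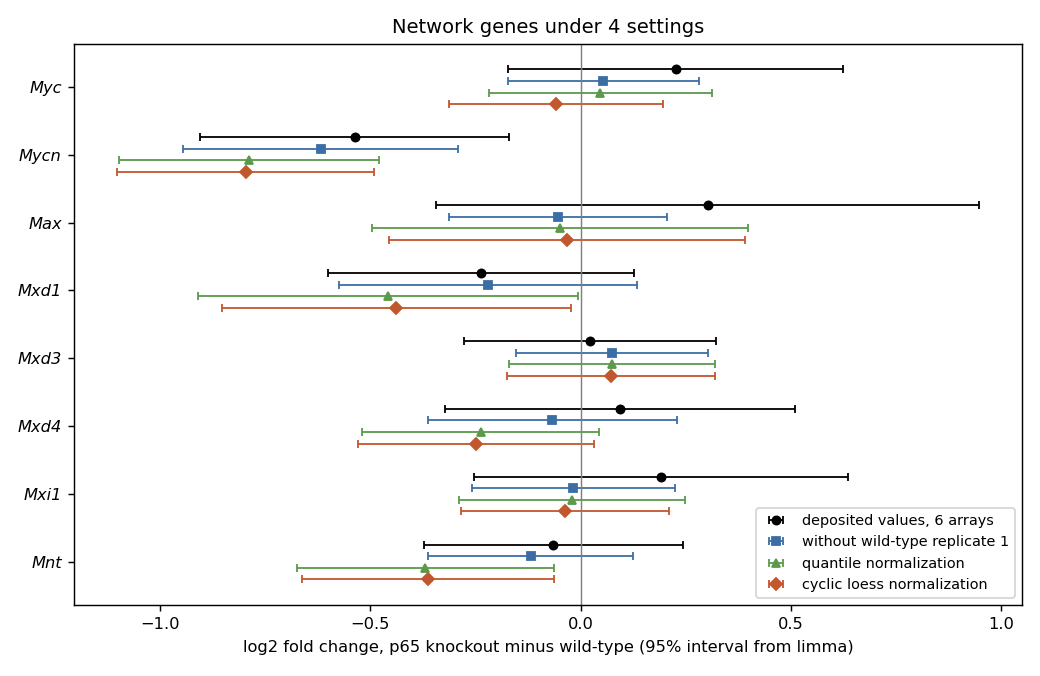
Log2 fold change of each network gene, p65 knockout minus wild-type, with its 95% interval from limma, on the deposited values (black), without wild-type replicate 1 (blue), with quantile normalization (green) and with cyclic loess normalization (orange). The Mycn intervals lie below 0 in all 4 settings, while those of Myc, Max, Mxd3, Mxd4 and Mxi1 cross 0 in each. The intervals of Mxd1 and Mnt lie below 0 with quantile and cyclic loess normalization and cross 0 in the other settings.

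Each member was also set against Myc array by array. A shift of a whole array cancels in such a difference, but the offset of wild-type replicate 1 does not, since it ran from a median of 0.34 in the dimmest to -0.48 in the brightest group of genes and from 0.15 for Mxd3 to -1.07 for Max. Only the change of this difference between genotypes can be read, because the signals of different probes have no common scale. Relative to Myc, Mycn was at -3.36, -3.64 and -3.64 on the wild-type arrays and at -4.51, -4.17 and -4.25 on the knockout arrays (log2). The knockout values lay below the wild-type values without overlap, and the difference between genotypes was -0.76 (SE 0.14), or -0.67 without wild-type replicate 1. Mnt relative to Myc was also lower on every knockout array (-3.72, -3.66 and -3.74) than on any wild-type array (-3.18, -3.43 and -3.64), with a difference of -0.29 (SE 0.13), or -0.17 without wild-type replicate 1. Of all other genes, 26% were lower relative to Myc in knockout without overlap, and of those in the brightest group 12.3% were. For both genes the two-sided exact permutation p was 0.1, the smallest that 3 against 3 arrays allow, and 0.35 after Benjamini-Hochberg adjustment over the 7 differences. With cyclic loess normalization that of Mnt was 0.3. The other 5 differences overlapped between genotypes. They were -0.46 for Mxd1, -0.20 for Mxd3, -0.13 for Mxd4, -0.04 for Mxi1 and 0.08 for Max, with exact permutation p from 0.2 to 0.7.

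**Figure D3:**
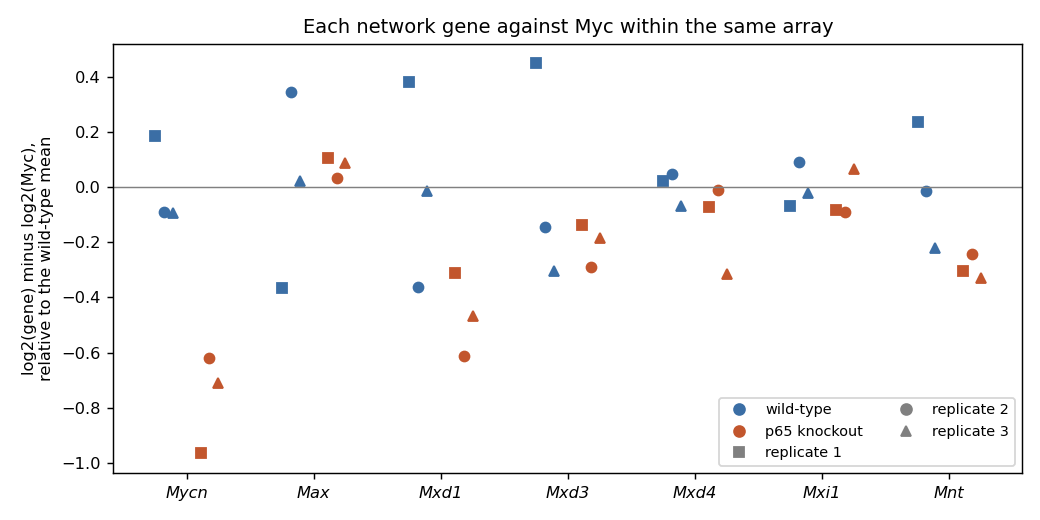
For each network gene other than Myc, log2 of its signal minus log2 of the Myc signal on the same array, drawn relative to the wild-type mean of that difference (blue, wild-type; orange, p65 knockout; shapes give replicate numbers). The orange points of Mycn and of Mnt lie below all their blue points, and the other genes overlap.

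The genes whose pattern over the 6 arrays was most like that of Myc were Ppm1d, a phosphatase gene of the p53 response (r = 0.999), Usp9x, a deubiquitinase gene (r = 0.999), and Sec31a, a COPII coat gene (r = 0.998), among 9968 genes of above-median signal. Likeness is Pearson's r over 6 arrays that share the low wild-type replicate 1, and 1200 genes exceeded r = 0.95. Without that array the same genes correlated with Myc at 0.965, 0.975 and 0.983.

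Of the other proteins around Max and Mlx, the second hub of the network, 0 of 5 genes passed, and their median log2 fold change was 0.16, or -0.09 without wild-type replicate 1. Mlx, the hub itself, read 7.54, 7.76 and 7.78 on the wild-type arrays and 8.01, 7.95 and 8.10 on the knockout arrays without overlap (log2 fold change 0.32, SE 0.14, limma adjusted p = 0.221). Across all genes 19.2% had knockout values above wild-type values without overlap, and in the brightest group, to which Mlx belongs, 43.9% did. Mycl (L-Myc) stood at 0.16, and the Mlx partners Mlxip (MondoA) and Mlxipl (ChREBP), which respond to glucose, at 0.17 and -0.26. Mga, a large repressor that pairs with Max, stood at 0.11. The signs of Mlxip (-0.09) and Mga (-0.21) turned without wild-type replicate 1, and without it Mycl stood at 0.10 and Mlxipl at -0.10.

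The Sin3 corepressor complex, which carries out repression by Mxd proteins and Mnt, had 0 of 15 measured members past the threshold. All 15 had positive log2 fold changes, with a median of 0.19, while 45.9% of all genes and 86.7% of the brightest group were positive. Without wild-type replicate 1 the median was 0.03 and 9 of 15 were positive, and with cyclic loess normalization 4 of 15 were. Sap30, a linking subunit, read 8.25, 8.25 and 8.28 on the wild-type arrays and 8.83, 8.92 and 8.76 on the knockout arrays. These groups lay well apart (log2 fold change 0.58, SE 0.13, limma adjusted p = 0.0807), and Sap30 rose without wild-type replicate 1 (0.57, limma adjusted p = 0.0317). Suds3 stood at 0.51 (limma adjusted p = 0.136), the histone-binding gene Rbbp4 at 0.32, Sap18 at 0.32, the deacetylase gene Hdac2 at 0.30 and the scaffold gene Sin3a at 0.28. These values were smaller without wild-type replicate 1, at 0.39 for Suds3, 0.19 for Rbbp4, 0.17 for Hdac2, 0.05 for Sin3a and 0.03 for Sap18.

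Among 16 measured genes of Myc cofactors and of Myc protein turnover 0 passed, and the median was 0.33, where the brightest group had 0.30. Without wild-type replicate 1 the median was 0.02 with 8 of 16 positive, where the brightest group had 0.13, and with quantile normalization it was -0.01. Cip2a, whose product protects Myc from dephosphorylation, read 5.92, 6.61 and 6.02 on the wild-type arrays and 7.17, 7.20 and 7.34 on the knockout arrays. Every knockout value lay above every wild-type value, at 2.08 times the wild-type level (log2 fold change 1.05, SE 0.20, limma adjusted p = 0.0589). Cip2a rose with the replicate number as a block (limma adjusted p = 0.0314) and without wild-type replicate 1 (0.92, limma adjusted p = 0.0389). The gene of the ubiquitin ligase subunit Skp2 stood at 0.59 (limma adjusted p = 0.13). The helicase genes Ruvbl2 and Ruvbl1 stood at 0.53 and 0.50, the mitotic kinase gene Aurka at 0.45 and the acetyltransferase gene Kat5 at 0.38. Leaving out wild-type replicate 1 gave 0.33 for Ruvbl1 and 0.22 for Kat5.

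Genes widely named as activated by Myc held 40 measured members, of which 1 rose, 0 fell and 39 did not pass, where 0.687% of all genes rose. The riser was Nme2, a nucleoside diphosphate kinase gene, with 9.20, 9.46 and 9.29 on the wild-type arrays and 10.09, 10.08 and 10.10 on the knockout arrays. Those knockout values span 0.02 and lie far above the wild-type range (1.71-fold, log2 fold change 0.77, SE 0.13, limma adjusted p = 0.0483). Leaving out wild-type replicate 1 gave 0.72 (limma adjusted p = 0.0208). Leaving out any other single array, quantile normalization, cyclic loess normalization or robust variances left 0 of the 40 genes past the threshold, so Nme2 was then not called. In the list 39 of 40 genes were positive, and 31 of 40 had all knockout values above all wild-type values, where 43.9% of the brightest group of genes did. With quantile and cyclic loess normalization 12 and 13 of 40 did. The share of the brightest group was not taken in those settings, so these counts cannot be set against the 43.9%. The median was 0.39, against -0.04 for all genes and 0.30 for the brightest group. With cyclic loess normalization the median was 0.06, beside 0.01 for the brightest group, 32 of 40 were positive and 0 passed. Without wild-type replicate 1 the median was 0.26, beside 0.13 for the brightest group, with 37 positive and 4 higher. Of all 19938 genes 653 were higher in that setting. No set test was made, so this does not show that the list differs from other bright genes.

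Tfrc, the transferrin receptor gene, had the widest difference in that list, with 6.56, 8.04 and 7.84 on the wild-type arrays and 9.06, 8.94 and 8.79 on the knockout arrays. Its log2 fold change was 1.45 (SE 0.35, limma adjusted p = 0.0925), and Tfrc rose without wild-type replicate 1 (0.99, limma adjusted p = 0.0152) and with the replicate number as a block (limma adjusted p = 0.0421). Tfrc is also a gene of erythroid precursors, and 0 of 3 measured erythroid markers passed, with log2 fold changes of 0.25 to 0.61. The part of erythroid cells in the Tfrc values was not tested. The hexokinase gene Hk2 stood at 0.68, the translation factor genes Eif5a and Eif4e at 0.63 and 0.58, and Nme1 at 0.60 (limma adjusted p from 0.0915 to 0.0979).

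Genes widely named as repressed by Myc did not run one way. Of 14 measured members 1 rose, where 0.687% of all genes did, and 13 did not pass. The median was 0.10 with 8 positive, where 45.9% of all genes were positive. The median turned to -0.02 without wild-type replicate 1 (7 positive, 2 higher), -0.04 with quantile and -0.06 with cyclic loess normalization (6 positive in each). Without wild-type replicate 1, 653 of all 19938 genes were higher. Gadd45b, a stress response gene that NF-κB is also known to induce, read 6.13, 6.10 and 5.99 on the wild-type arrays and 7.28, 7.65 and 7.04 on the knockout arrays. It rose 2.38-fold (log2 fold change 1.25, SE 0.18, limma adjusted p = 0.0303), with every knockout value above the wild-type values. Leaving out any single array other than wild-type replicate 1 left 0 of the 14 genes past the threshold, so Gadd45b was then not called. The myeloid transcription factor gene Cebpa stood at 0.75 (limma adjusted p = 0.0793) and rose without wild-type replicate 1 (0.72, limma adjusted p = 0.0498). On the same side were the integrin gene Itgal at 0.69 and the cyclin-dependent kinase inhibitor gene Cdkn1b (p27) at 0.49. On the negative side were Cdkn1c (p57), an inhibitor gene characteristic of quiescent stem cells, at -0.39 (SE 0.13, limma adjusted p = 0.162), and the thrombospondin gene Thbs1 at -0.74. Cebpa and Itgal are also expressed in the myeloid precursors whose 5 markers rose, and the part of those cells was not tested.

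**Figure D4:**
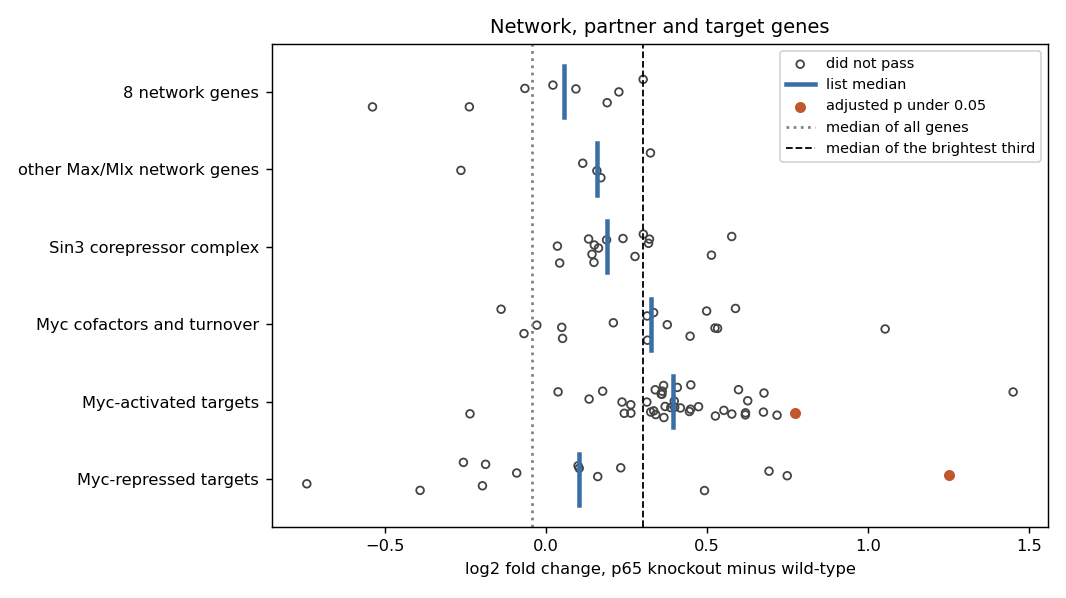
Log2 fold changes, p65 knockout minus wild-type, of the 8 network genes and of 5 lists of partner and target genes, with filled points for genes at a limma adjusted p under 0.05, blue bars for list medians, a dotted line at the median of all genes (-0.04) and a dashed line at that of the brightest group (0.30). The 8 network genes hold no filled point, the filled points are Nme2 and Gadd45b, and the list of Myc-activated genes has its median (0.39) to the right of the dashed line.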

How the data were processed

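Log2 expression values of the 6 arrays were used as the authors deposited them, in 1 table. Partek, RMA and Affymetrix Expression Console are listed in the submitters' processing notes with no version, and RNA was amplified with a whole-transcriptome kit per the labels' protocols. The array type was not settled: the design text names an exon array, the annotation given for the rows is that of a gene array. Of 35557 rows, 21789 have 1 gene symbol, 1621 several and 12147 none. For genes with several rows the row with the highest mean was kept, leaving 19938 genes. The genotypes were compared by limma 3.58.1 under R 4.3.3 with no covariate and 4 residual degrees of freedom, two-sided, with Benjamini-Hochberg adjustment over all genes at 0.05. The number of arrays limits the precision. The test was tried on simulated arrays, but these held no offset like that of wild-type replicate 1. That trial therefore does not show how the test performs on the present arrays. Members and lists were chosen with earlier results of these data known. The 8 members, up to 6 genes of each list with the smallest p, Rela and the 3 genes most like Myc are named. Alternatives were a replicate block, quantile and cyclic loess normalization, median centring, leaving out the dimmest genes, an intensity trend, robust variances, array weights, the mean of all rows per gene, and each array left out. Deviations of same-numbered arrays from their group means correlated at 0.368, 0.119 and 0.162, all above 0.1, the minimum taken for pairing, although arrays 2 and 3 correlated as strongly across numbers (0.183 and 0.195) and the labels do not say what a number marks.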

Additional observations from a re-analysis of the deposited data

How the results depend on the processing

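Of the 8 network genes, 0 passed on the deposited values and in 13 of 15 alternatives, and 1, Mycn, passed with cyclic loess normalization (-0.80) and with array weights (-0.59). Signs turned for Max (-0.049), Mxd4 (-0.24) and Mxi1 (-0.020) with quantile normalization, for Myc (-0.058), Max (-0.032), Mxd4 (-0.25) and Mxi1 (-0.036) with cyclic loess, for Mxd4 (-0.035) with array weights and for Mnt (0.010) with median centring. Leaving out 1 array at a time gave -0.053 to 0.54 for Max, -0.067 to 0.19 for Mxd4, -0.017 to 0.30 for Mxi1 and -0.023 to 0.074 for Mxd3. Relative to Myc, signs turned for Max (-0.096) and Mxd3 (0.027) with quantile normalization and for Mxd3 (0.13) and Mxi1 (0.022) with cyclic loess, and leaving out arrays gave -0.11 to 0.25 for Max, -0.36 to 0.019 for Mxd3 and -0.088 to 0.0095 for Mxi1. The cause was not tested. Over all genes 163 passed, 372 with the replicate block, 252 with cyclic loess, 314 with median centring, 505 without the dimmest genes, 1599 with array weights and 21 to 929 with 1 array left out (929, 75 and 26 without wild-type replicates 1, 2 and 3, and 22, 21 and 29 without knockout replicates 1, 2 and 3). Calls among Myc-activated genes were 2 with the replicate block, 0 with quantile, cyclic loess or robust variances, 8 with array weights and 0 to 4 with 1 array left out. Calls among Myc cofactors were 1 with the replicate block, cyclic loess, median centring or without the dimmest genes, 3 with array weights and 0 to 1 with 1 array left out. Calls in the Sin3 complex were 1 without the dimmest genes or with array weights and 0 to 1 with 1 array left out, and calls among Myc-repressed genes were 2, 2 and 0 to 2 in the same order. The replicate block moved no network gene across the threshold.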
